A study of Nothobranchius furzeri with 9 samples.

Results

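Adult skeletal muscle of the turquoise killifish Nothobranchius furzeri was set against the muscle of both other ages, old and young, to describe the genes whose RNA peaked or dipped at the middle age. For each entry of the gene table, the mean of the 3 adult libraries was compared with the average of the old mean and the young mean, so that both ages weighed equally. Values are normalized counts, in which the reads of a gene are scaled by a factor of its library, and differences are on the log2(normalized count + 1) scale. Folds against the average of both ages, and the 2-fold limits, were taken from these log2 differences. The means in them are thus means of log2 values, and such a fold differs from the ratio of mean counts. All 9 libraries entered the comparison. Of the 39396 entries, the 17454 that averaged 5 or more were tested. An entry was called where limma gave a p, adjusted after Benjamini and Hochberg, no higher than 0.05 and the log2 difference was 1 or more. A called entry was termed an adult peak when the adult mean was also at least 2-fold above the old mean and the young mean each, and an adult dip when it was at least 2-fold below both.

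The fish is a short-lived annual species used as a model of vertebrate aging. Adult fish were labelled 20 weeks, old fish 35 weeks and young fish 5 weeks of age, with 3 libraries per age, each from whole muscle of 1 animal. All groups were untreated males of the strain MZM-04/10 that were fasted and sacrificed at 10 a.m., so that neither feeding nor the hour of the day differed by design. For adult and old animals the study's methods give a range of ages, whereas the labels give 1 age each.

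Skeletal muscle is a main target of glucocorticoid hormones. The hormone acts through its nuclear receptor, and in mammals it switches on regulators such as KLF9, FKBP5 and TSC22D3 together with FOXO factors, ubiquitin ligases and inhibitors of growth signaling, many of which also respond to fasting. Immediate-early genes, transcribed soon after a stimulus without new protein synthesis, and the circadian clock share several members with this program.

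The reads assigned to genes, estimated from the spacing of the values, were 11.76 to 14.23 M in adult, 7.96 to 12.71 M in old and 11.72 to 12.92 M in young libraries. Entries of the skeletal muscle fibre markers (CKM, ACTA1, TNNT3, RYR1 and others) summed to 2818741 to 4972935 normalized counts in adult, 3939041 to 5182042 in old and 3449294 to 3661987 in young libraries, as fits the label of the tissue. Adult replicate 2 stood apart from the other adult fish. Its 20 most abundant entries held 49.8% of its normalized counts, against 59.2% in adult replicate 1 and 57.2% in adult replicate 3. It had the highest of the 3 adult values in 227 of the 395 adult peaks and the lowest in 149 of the 284 adult dips, compared with 6243 and 5842 of all 17454 tested entries. Adult replicate 1 leaned the other way, lowest in 201 peaks and highest in 148 dips (6597 and 6007 of all tested entries). Peaks and dips were chosen from these same values. The part of adult replicate 2 is given beside many of the results it moves, but the peak or dip class of single entries is not given without it. In whole tissue a change in the number of cells of a type and a change in RNA per cell cannot be told apart.

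In adult muscle 845 entries were called higher (4.84% of those tested) and 795 were called lower (4.55%) than in the average of the other ages, or 1640 in all (9.4%). Without adult replicate 2 there were 430 higher and 490 lower entries, whereas the other 8 omissions of a library gave 674 to 926 higher and 601 to 915 lower ones. Each side of the comparison also counted on its own. Adult against young muscle gave 1868 higher (10.7%) and 1987 lower entries (11.4%), and adult against old muscle 220 higher (1.26%) and 144 lower entries (0.825%). Both use the same adult libraries. Of the 845 higher entries, 395 were at least 2-fold above both ages and 58 above old muscle only, and the others were 2-fold above young muscle only. For the 795 lower entries 284 were 2-fold below both ages, 25 below old muscle only and 486 below young muscle only. Thus the adult peaks made up 2.26% and the adult dips 1.63% of the tested entries, and without adult replicate 2 they numbered 210 and 193. These classes do not require a call against each age. Only 128 of the 395 peaks and 87 of the 284 dips had an adjusted p of at most 0.05 against both ages separately (limma).

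**Figure D1:**
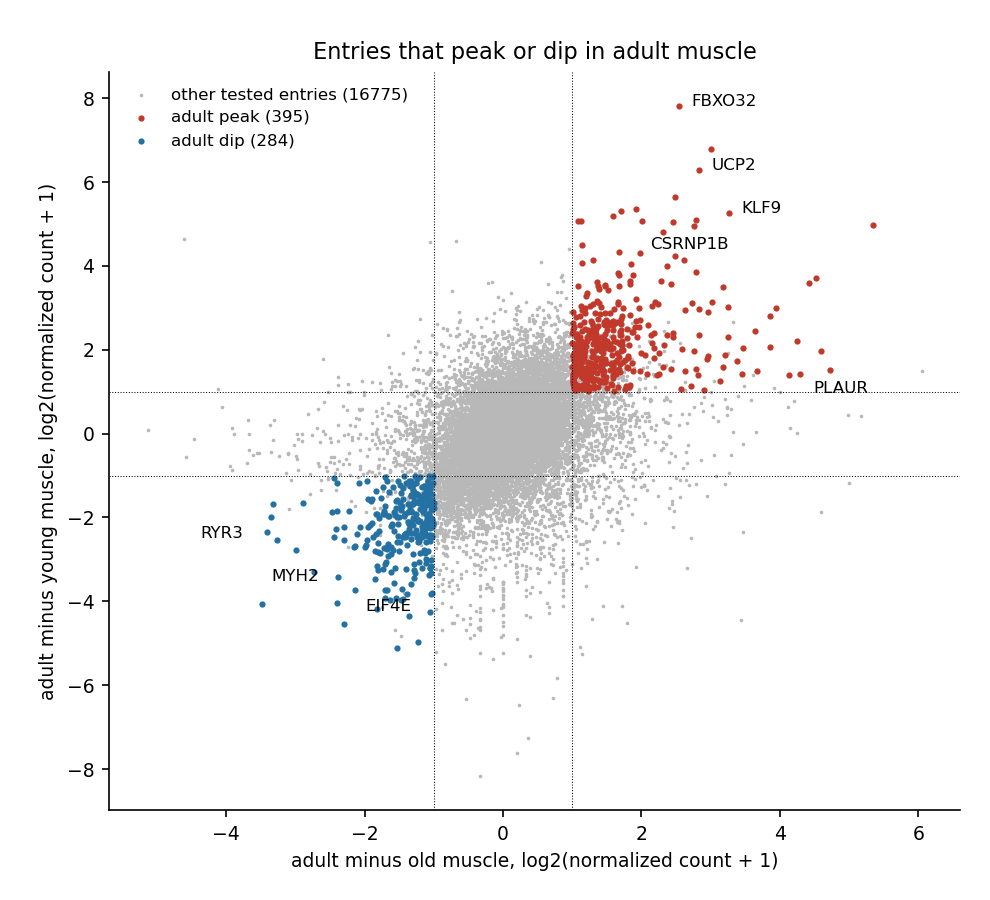
Each point is 1 of the 17454 tested entries, with adult minus old muscle on the horizontal and adult minus young muscle on the vertical axis, both as log2 differences; dotted lines mark 2-fold. The 395 adult peaks (red) lie at the upper right and the 284 adult dips (blue) at the lower left, and both reach further along the vertical axis.

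The adult peaks had a median of 63 normalized counts in adult, 21.3 in old and 13 in young muscle. Their median log2 difference was 1.44 from old and 2.02 from young muscle, and 140 of them were at least 4-fold and 33 at least 8-fold above the average of both ages. All 3 adult values exceeded all 6 others in 325 of the 395 peaks (5.78% of all tested entries), which the choice of peaks from the same values favors. Among the dips the medians were 8.33 normalized counts in adult, 25.8 in old and 37.3 in young muscle, with median log2 differences of -1.33 from old and -2.10 from young muscle. In the same way the 3 adult values lay below all 6 others in 206 of the 284 dips (6.09% of all tested entries). Together the peaks held 0.735 to 1.41% of the normalized counts of an adult, 0.258 to 0.370% of an old and 0.206 to 0.226% of a young library. The dips held 0.114 to 0.225% in adult, 0.472 to 0.545% in old and 0.927 to 1.43% in young libraries. The single gene MYH2 held most of this share in every old and every young library.

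Old muscle mostly lay between adult and young muscle in these genes. The old mean was above the young mean in 295 of the 395 peaks and below it in 241 of the 284 dips, and the median log2 difference of old minus young muscle was 0.53 in peaks and -0.64 in dips, against -0.03 over all tested entries. In old against young muscle 74 peaks (18.7%) were called higher and 7 lower, beside 7.91% and 9.84% of all tested entries, whereas 64 dips (22.5%) were called lower and 1 higher. The values of old and young libraries overlapped in 257 of the peaks (65.1%) and 156 of the dips (54.9%), beside 58.0% of all tested entries. The 2-fold limits against each age restrict how far old and young means can lie apart in peaks and dips. The shares called and overlapping are therefore partly set by that choice.

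**Figure D2:**
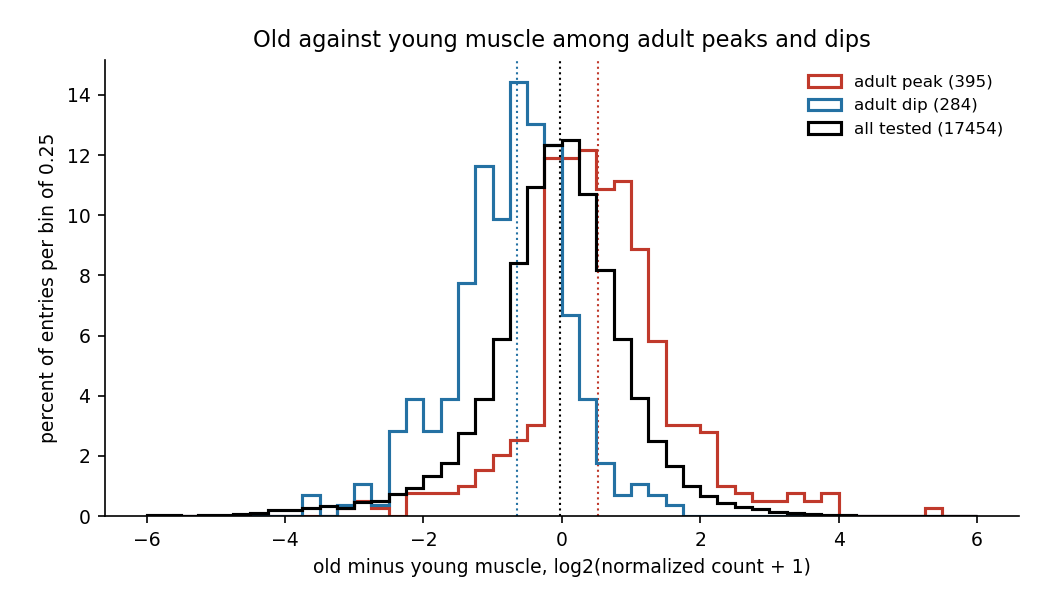
Distribution of the log2 difference of old minus young muscle for adult peaks (red), adult dips (blue) and all tested entries (black), as percent of the entries of each class per bin of 0.25; dotted lines are medians. The peaks have their median at 0.53, the dips at -0.64 and all tested entries at -0.03.

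The entries at the edge of these classes were close to each other. CCDC88B (entry 230971) and FKBP5 were the peaks nearest the limit and NR5A2 (entry 103589) and WIPI2 the called entries just outside it, with log2 differences from their nearer age that all round to 1.00. At the limit of the dips, STARD7 and FZD8 (entry 513734) lay just inside, and AXIN2 (entry 458762) and HSP90AA1.1 just outside (-0.99 from old muscle for HSP90AA1.1).

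The peaks with the smallest p began with CSRNP1B, UCP2 and KLF9. CSRNP1B, of a family of nuclear proteins that regulate transcription, had 3709, 3323 and 2902 normalized counts in adult, 760, 766 and 995 in old and 195, 146 and 162 in young muscle (log2 difference 3.14, standard error 0.15, adjusted p = 2.55e-06 by limma). The mitochondrial carrier UCP2 had 3235, 3257 and 3687 in adult, 404, 387 and 682 in old and 30, 67 and 38 in young muscle. On the log2 scale its adult mean lay 23.6-fold above the average of both ages (4.56, standard error 0.25, adjusted p = 5.77e-06 by limma). In neither gene did the ages overlap, and old fish were above young ones. KLF9, a zinc finger factor induced by glucocorticoids, had 2591, 3459 and 3024 in adult, 170, 363 and 485 in old and 83, 70 and 78 in young muscle. Its adult mean was 19.3-fold above the average of both ages on the log2 scale (4.27, standard error 0.26, adjusted p = 1.31e-05 by limma).

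Next in order came ZBTB16B, RASGEF1B, SIK1, CSRNP1A and ARRDC3A. The kinase SIK1 had 2191, 1816 and 1919 normalized counts in adult, 476, 607 and 806 in old and 186, 198 and 134 in young muscle. CSRNP1A, the paralog of the first gene, had 472, 190 and 312 in adult, 39, 42 and 52 in old and 7, 9 and 11 in young muscle. Both paralogs thus ordered the ages alike, with adult above old and old above young fish in every library. ARRDC3A, an arrestin domain protein, had 1407, 2247 and 1697 in adult, 443, 334 and 234 in old and 144, 193 and 113 in young muscle. Another pattern was seen in GLS2 (entry 220820), a mitochondrial glutaminase, with 489, 659 and 626 in adult, 160, 196 and 149 in old and 147, 148 and 197 in young muscle. Here old and young fish overlapped (log2 difference 0.04) and adults alone stood out (1.83 from the average of both, adjusted p = 0.000134 by limma). GLS2 has 2 entries in the annotation, so that its value is uncertain.

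**Figure D3:**
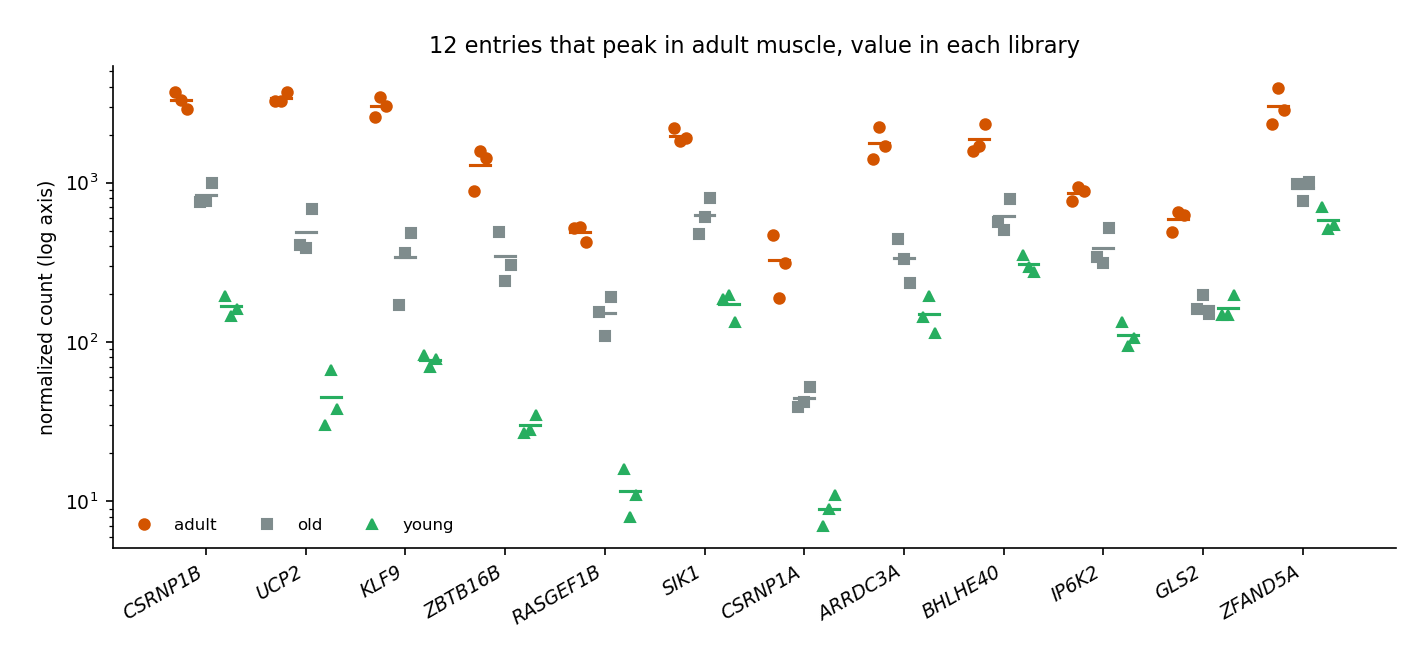
Normalized counts (log axis) of the 12 peaks with the smallest p among those with a gene symbol and with all adult values above all others, with adult (circles), old (squares) and young libraries (triangles) from left to right and short lines for means of 3 libraries. The separation of the adult points was part of the choice; CSRNP1B had 3709, 3323 and 2902 normalized counts in adult muscle, and for GLS2 the old and young points overlap.

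The most abundant peaks included FKBP5, MKNK2B and ALPK2. MKNK2B, a kinase that phosphorylates the cap-binding protein EIF4E, had 3135, 5507 and 4305 normalized counts in adult, 1596, 1244 and 1105 in old and 1015, 848 and 567 in young muscle, with no overlap of adults with the others (2.05, standard error 0.22, adjusted p = 0.000344 by limma). FKBP5, a co-chaperone of the glucocorticoid receptor, was less clear, with 4066, 6409 and 4965 in adult, 1312, 2730 and 4507 in old and 1517, 1300 and 2456 in young muscle. The old value of 4507 fell among those of adults. Its call (1.29, adjusted p = 0.0212 by limma) was lost without adult replicate 2 (adjusted p = 0.101) and without adult replicate 3 (0.0630).

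About 1 member of 2 in the list of genes that respond to glucocorticoids or fasting rose in adults. Of 68 tested entries 33 were called higher (48.5%, beside 4.84% of all entries) and 2 lower, 33 were not called, and 26 were adult peaks. The list's median log2 difference was 1.06, against 0.00 over all tested entries, with 0.60 from old and 1.54 from young muscle. In the 9 fits without 1 library, 29 to 35 members were called higher, with 30 without adult replicate 2, and 1 or 2 lower, with 1 without adult replicate 2 or 3. Summed over its entries the list gave 53480 to 61699 normalized counts in adult, 27877 to 36431 in old and 13552 to 15969 in young libraries, so that the 3 ages did not overlap. The list and the group of immediate-early genes were written with earlier results of these libraries known, so their direction is no independent evidence.

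Among transcription factors of the list, CEBPD had 612, 914 and 730 normalized counts in adult, 81, 103 and 289 in old and 27, 36 and 10 in young muscle (13.5-fold above the average of both, adjusted p = 0.000437 by limma). FOXO1A, a FOXO factor that drives genes of muscle wasting in mammals, had 399, 410 and 273 in adult, 121, 111 and 181 in old and 45, 48 and 30 in young muscle. KLF11B, CEBPB and FOXO4 were peaks as well, with log2 differences of 2.37, 2.75 and 1.63. FOXO3 was called higher (2.26-fold) but was not a peak, because old muscle was within 2-fold of adult muscle (log2 difference 0.48). The 2 entries of FOXO3A ran the other way: entry 587813 had 4, 5 and 5 in adult, 9, 11 and 14 in old and 12, 19 and 23 in young muscle, and entry 270277 likewise was a dip (-1.66), which was not called without adult replicate 2 (adjusted p = 0.0645) or adult replicate 3 (0.0553, limma).

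Several members restrain growth and the cell cycle. The cell cycle inhibitor CDKN1A (entry 316473) had 1926, 1493 and 2063 normalized counts in adult, 154, 324 and 326 in old and 185, 497 and 475 in young muscle (2.59, standard error 0.33, adjusted p = 0.000786 by limma). Old and young fish overlapped here. The mTORC1 inhibitors SESN1 and DDIT4 were also peaks. SESN1 had 1379, 2188 and 1975 in adult, 689, 840 and 479 in old and 298, 285 and 312 in young muscle. DDIT4 (entry 802817) had 123, 134 and 125 in adult, 38, 28 and 51 in old and 26, 22 and 9 in young muscle, and DDIT4L (entry 843934) was raised by 2.28 on the log2 scale. TSC22D3, a leucine zipper protein known as GILZ that is a direct target of the hormone in mammals, had 2 of 3 entries among the peaks (1.91 and 2.50). The arrestin domain gene ARRDC2 was 15.4-fold above the average of both ages (adjusted p = 0.000254 by limma).

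Against the average of both ages the glucocorticoid receptor itself moved less. The 3 tested entries of the glucocorticoid receptor NR3C1 had log2 differences of 0.92, 0.55 and 0.70, with adjusted p of 0.00817, 0.0537 and 0.00714 by limma, all under the 2-fold limit. Without adult replicate 3 or old replicate 1 the first of them passed it (1.06 and 1.003). From young muscle alone the 3 entries differed by 1.30, 1.15 and 1.32 (adjusted p = 0.00130, 0.00175 and 0.000210 by limma). From old muscle they differed by 0.54, -0.05 and 0.08, so the distance was mainly from young fish. The kinase PDK4, which restrains glucose oxidation and is a fasting target in mammals, had 529, 519 and 496 in adult, 594, 549 and 244 in old and 319, 421 and 385 in young muscle and was not called (0.36, adjusted p = 0.327 by limma). These genes were chosen after their values were seen.

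Immediate-early genes formed the second group. Of 48 tested entries 20 were called higher (41.7%) and 0 lower, 12 were peaks, and the median log2 difference was 1.14, with 0.75 from old and 1.497 from young muscle. At an unadjusted p under 0.05 in limma, 30 of the 48 entries were higher and 1 was lower. Over all 17454 tested entries, 2834 were higher and 2994 lower at that p. Between 17 (without adult replicate 2) and 23 members were called higher when 1 library was left out. Summed, the entries gave 18851 to 20512 normalized counts in adult, 10234 to 10630 in old and 6757 to 7887 in young libraries. Beside CSRNP1B, CSRNP1A and SIK1 the list contained KLF6, CTGF, IER2 and GADD45G. The Kruppel-like factor KLF6 had 811, 627 and 605 in adult, 233, 361 and 319 in old and 178, 186 and 196 in young muscle. GADD45G (entry 274282), a growth arrest gene, had 313, 219 and 235 in adult, 55, 96 and 92 in old and 12, 29 and 4 in young muscle. The adult values of both lay above all others. Of the classical members, FOSB (entry 25559, 1.64), JUNBA (1.57) and NR4A1 (entry 94399, 1.45) were called higher by limma, FOSB and NR4A1 without being peaks. FOSB was not called without adult replicate 1 (adjusted p = 0.0843), adult replicate 2 (0.102), young replicate 2 (0.0527) or young replicate 3 (0.0519), and JUNBA not without adult replicate 2 (0.122) or adult replicate 3 (0.0749). FOS and EGR1 were not called. FOS (entry 762379) had 4, 7 and 7 in adult, 11, 4 and 6 in old and 5, 2 and 5 in young muscle, and EGR1 (entry 546744) had 120, 161 and 144 in adult, 309, 119 and 290 in old and 149, 142 and 71 in young muscle. Their adjusted p was 0.796 and 0.736 (limma), and both were chosen after their values were seen.

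Of the circadian clock genes, 42 entries were tested, of which 8 were called higher (19%) and 2 lower (4.76%), with 6 peaks and a median log2 difference of 0.36. Only 5 were called higher without adult replicate 2. NR1D2 (entry 544560), which encodes the repressor REV-ERB beta, had 379, 125 and 155 normalized counts in adult, 37, 34 and 40 in old and 11, 14 and 9 in young muscle (3.19, standard error 0.31, adjusted p = 0.000216 by limma), and a further entry of this gene was also a peak (1.75). BHLHE40 (entry 977955), a repressor that belongs to the clock and to the glucocorticoid list alike, had 1571, 1696 and 2342 in adult, 567, 502 and 794 in old and 350, 296 and 275 in young muscle. One entry of the repressor CRY1 of 4 was a peak (2.90) and the other 3 were not called. PER1B was a peak (1.58, adjusted p = 0.0125 by limma) whose call was lost without adult replicate 2 (0.0574) or adult replicate 3 (0.0561).

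The remaining clock genes differed in direction. PER2 was called lower, with 153, 211 and 162 in adult, 182, 370 and 446 in old and 645, 538 and 692 in young muscle, so that the distance was mainly from young fish (log2 difference -1.83, against -0.84 from old fish). The activator ARNTL1A had 260, 259 and 271 in adult, 275, 234 and 283 in old and 238, 273 and 267 in young muscle (log2 difference 0.01, standard error 0.13).

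Genes of protein breakdown and autophagy held higher entries of which few were peaks. Of 34 tested entries of atrophy ligases and related ubiquitin genes, 7 were called higher (20.6%) and 0 lower, with a median log2 difference of 0.06. At an unadjusted p under 0.05 in limma, 9 were higher and 7 lower, beside 2834 and 2994 of all 17454 tested entries. ZFAND5A, a ubiquitin-binding protein that activates the proteasome in mammals, was one of the 2 peaks, with 2339, 3935 and 2876 normalized counts in adult, 986, 768 and 1014 in old and 706, 513 and 540 in young muscle. The other was FBXO32, the muscle ubiquitin ligase atrogin-1. It had 275, 2357 and 536 in adult, 541, 46 and 69 in old and 4, 2 and 1 in young muscle, a spread that left adult and old fish overlapping (log2 difference 2.54, adjusted p = 0.140 by limma) and set both apart from young fish. For autophagy and lysosomal genes 12 of 57 entries were called higher (21.1%) and 0 lower (median 0.51). At an unadjusted p under 0.05 in limma these numbers were 29 and 3. Leaving out 1 library gave 5 (without adult replicate 2) to 14 entries called higher. Peaks were 1 of the 2 entries of ULK1, the kinase that starts autophagy, ATG9B and MAP1LC3A, the last of which was not called without adult replicate 2 (adjusted p = 0.0779) or 3 (0.0887, limma). ATG9B had 728, 1725 and 1269 in adult and 753, 520 and 482 in old muscle, which overlapped. The ULK1 peak had 172, 318 and 158 in adult and 145, 76 and 91 in old muscle. In both, adult replicate 2 was the highest. Of 47 proteasome subunits 1 was called lower (2.13%) and 0 higher in limma (3 and 4 at an unadjusted p under 0.05), and 2 were higher without adult replicate 3.

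The list of insulin, IGF and mTORC1 signaling held 12 higher entries of 84 (14.3%) and 1 lower one (1.19%). Leaving out 1 library gave 8 to 15 higher entries, and without adult replicate 2 there were 9 higher and 0 lower. Its 5 peaks were SESN1, SESN3, DDIT4, DDIT4L and FNIP1, which encode inhibitors or regulators of mTORC1. All but FNIP1 were also counted in the glucocorticoid and fasting list, so the 2 lists are not independent. FNIP1, the partner of folliculin, had 662, 694 and 1168 in adult, 420, 215 and 341 in old and 58, 75 and 79 in young muscle. SESN3 had 362, 652 and 592 in adult and 419, 147 and 181 in old muscle, and these overlapped.

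Several genes of fuel use, chosen after their values were seen, were peaks or dips. PPARGC1A, the coactivator PGC-1 alpha that promotes mitochondrial biogenesis, had 1087, 1067 and 1710 normalized counts in adult, 466, 528 and 529 in old and 174, 308 and 403 in young muscle (1.74, standard error 0.24, adjusted p = 0.00119 by limma). Its relative PPRC1 (entry 158041) was a dip, with 111, 98 and 184 in adult, 156, 395 and 373 in old and 1063, 1102 and 1347 in young muscle (-2.18, standard error 0.29, adjusted p = 0.000973 by limma). In the first the adults lay above all other fish, and in the second 1 old fish fell among them. The other entry of PPRC1 (826460, -0.36) and both entries of PPARGC1B (0.12 and 0.10) were not called. LPL (entry 704965), the lipase that releases fatty acids from lipoproteins, was 2.60-fold above the average of both ages. Over the list of fatty acid oxidation and storage, 2 of 57 entries were higher (3.51%) and 3 lower (5.26%), near the shares of all entries; leaving out adult replicate 1 gave 5 higher and 1 lower, young replicate 1 4 higher, old replicate 2 5 lower, and adult replicate 2 or 3 1 lower.

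In the list of amino acid transport and ATF4 targets 7 of 62 entries were higher (11.3%) and 2 lower (3.23%), and 4 were lower without adult replicate 3. Without adult replicate 2 there were 5 higher and 3 lower. CHAC1 (entry 58493), a glutathione-degrading enzyme of the ATF4 pathway, had 496, 720 and 681 in adult, 119, 132 and 87 in old and 70, 16 and 30 in young muscle, or 10.2-fold above the average of both. DDIT3, the stress factor CHOP, had 480, 672 and 751 in adult, 355, 329 and 208 in old and 246, 198 and 206 in young muscle. The transporter SLC1A4 was in contrast a dip, with 38, 50 and 40 in adult, 67, 245 and 178 in old and 519, 412 and 309 in young muscle (-2.48, adjusted p = 0.00110 by limma). No value of an adult fish overlapped the others in these 3 genes.

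**Figure D4:**
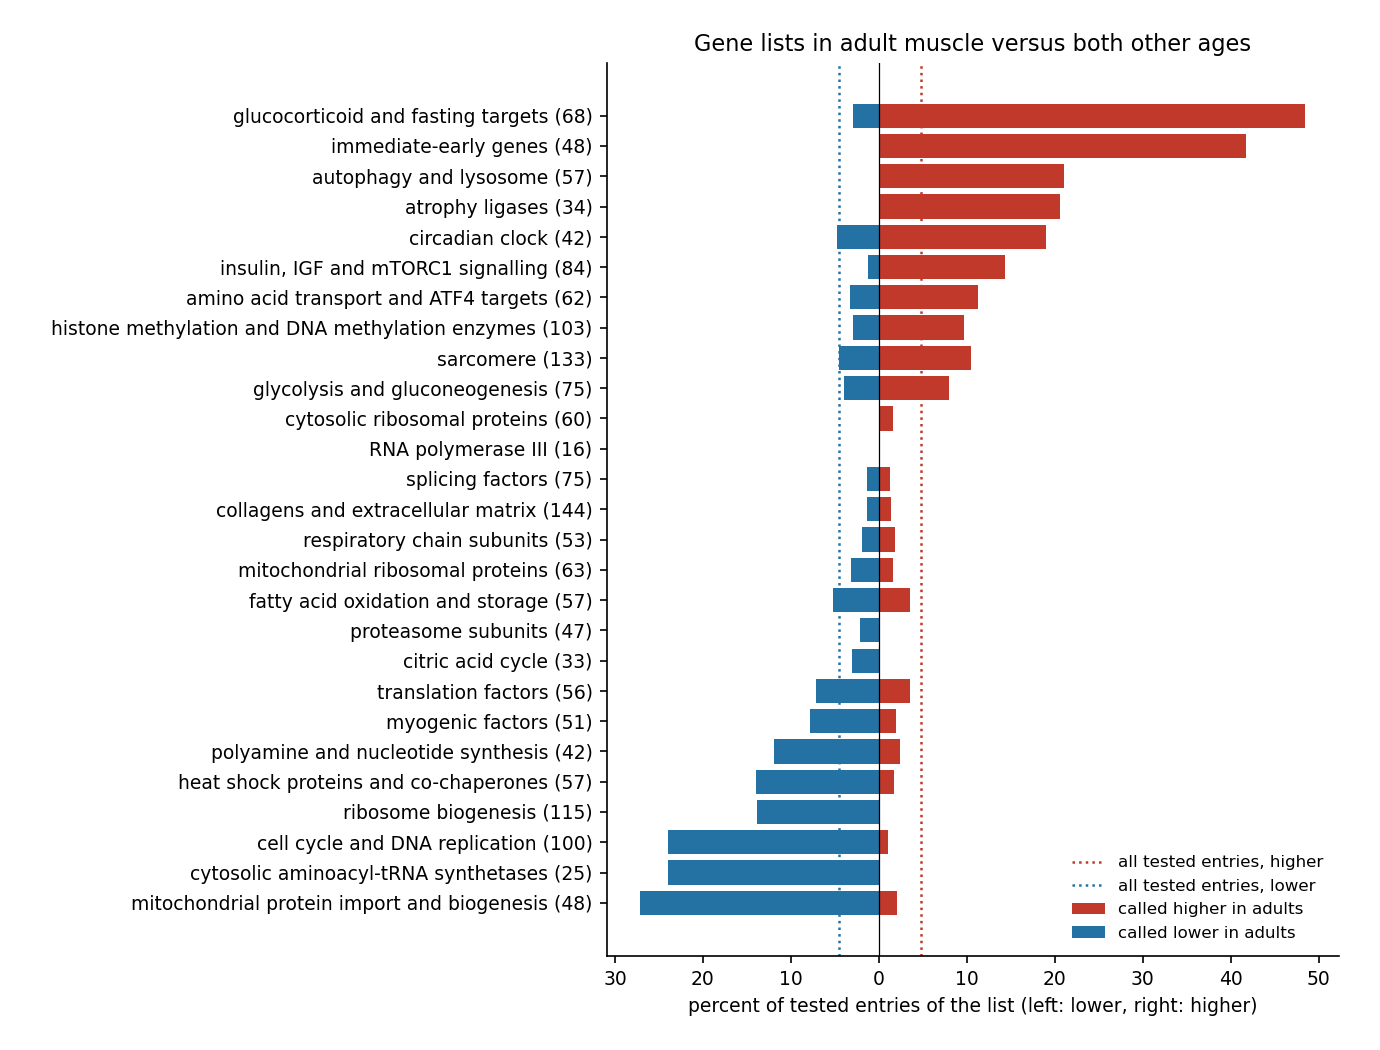
Percent of the tested entries of each of 27 gene lists that were called higher (red, to the right) or lower (blue, to the left) in adult muscle, with the number tested in brackets and dotted lines at the 4.84% and 4.55% of all tested entries. The glucocorticoid and fasting list reaches 48.5% and immediate-early genes 41.7% on the higher side, and mitochondrial protein import and biogenesis reaches 27.1% on the lower side.

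The dips with the smallest p began with CLTCB, SMARCA5, HSPA4, EIF4E and TIMM44. CLTCB, a clathrin heavy chain, had 56, 29 and 39 normalized counts in adult, 123, 180 and 134 in old and 335, 410 and 359 in young muscle (-2.50, standard error 0.21, adjusted p = 0.000120 by limma). The chromatin remodeler SMARCA5 had 77, 57 and 76 in adult, 159, 272 and 257 in old and 468, 482 and 464 in young muscle (-2.21, standard error 0.19, adjusted p = 0.000120 by limma). The ages did not overlap in either gene. EIF4E (entry 674790), which binds the cap of messenger RNAs at the start of translation, was 7.67-fold below the average of both ages, with 18, 9 and 15 in adult, 52, 86 and 56 in old and 154, 211 and 217 in young muscle. TIMM44 (entry 704710), part of the motor that pulls proteins into mitochondria, had 20, 15 and 17 in adult, 35, 82 and 69 in old and 270, 304 and 259 in young muscle. Both genes have a second entry, which makes these values uncertain.

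Among the 12 dips of the plot of dips by library, old and young fish overlapped in MFSD2A alone. MFSD2A (entry 613194), a transporter of lysophospholipids, had 5, 5 and 7 in adult, 33, 27 and 35 in old and 44, 43 and 27 in young muscle. Another entry of the same name, 770509, was a peak with 303, 308 and 425 in adult, 87, 363 and 120 in old and 74, 59 and 87 in young muscle, and the 2 cannot be assigned to separate genes here. TMEM41B and ATAD1, membrane proteins of the endoplasmic reticulum and of the outer mitochondrial membrane, were 3.39-fold and 3.52-fold below the average of both ages.

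**Figure D5:**
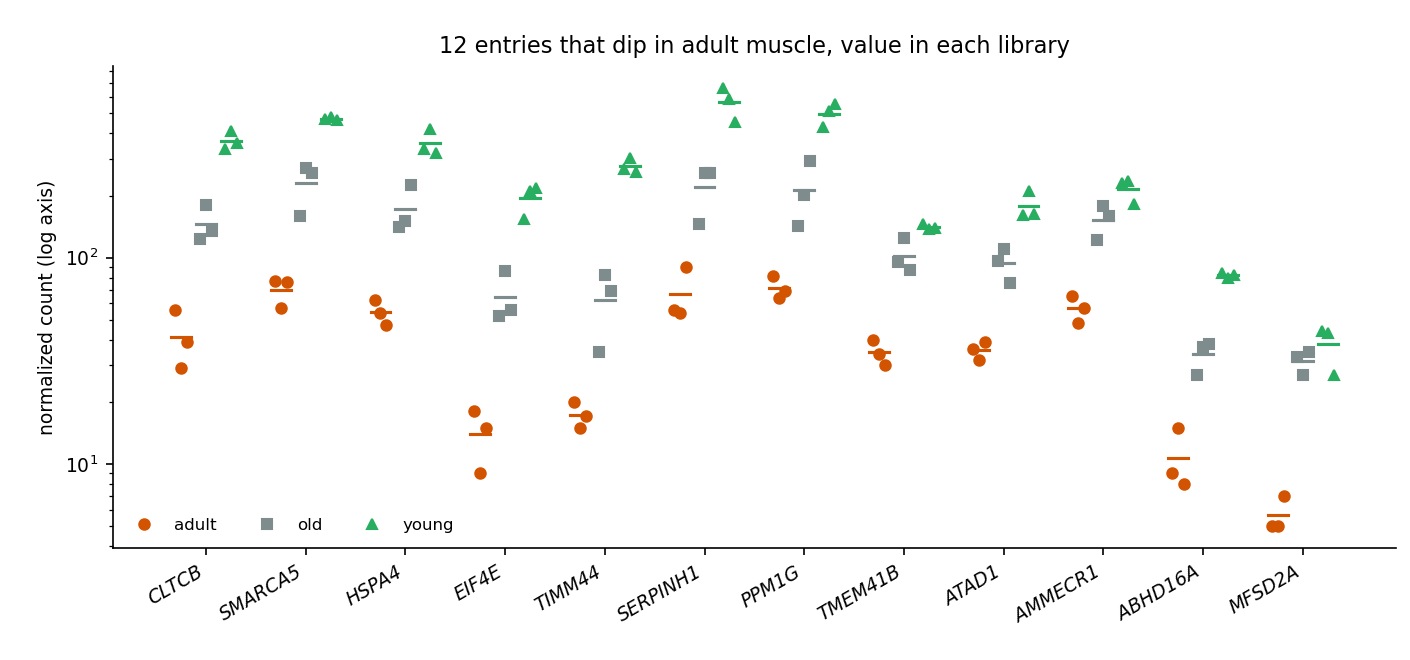
Normalized counts (log axis) of the 12 dips with the smallest p among those with a gene symbol and with all adult values below all others, with adult (circles), old (squares) and young libraries (triangles) from left to right and short lines for means of 3 libraries. The separation of the adult points was part of the choice; CLTCB had 56, 29 and 39 normalized counts in adult muscle, and old and young points overlap only for MFSD2A.

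Part of the chaperones fell in adults. Of 57 tested heat shock protein and co-chaperone entries 8 were called lower (14%) and 1 higher (1.75%), with 4 dips and a median of -0.38. HSPA4 (entry 454270), of the HSP110 family, had 62, 54 and 47 normalized counts in adult, 140, 151 and 225 in old and 338, 420 and 320 in young muscle. SERPINH1, the collagen chaperone HSP47, had 56, 54 and 90 in adult, 146, 258 and 257 in old and 665, 590 and 454 in young muscle. The myosin chaperone UNC45B had 603, 238 and 739 in adult, 1331, 1589 and 842 in old and 1898, 2061 and 2395 in young muscle. In all 3 the adults lay below every other fish. The entry named HSC70, of the HSP70 family, lay outside the list and was one of the most abundant dips. It had 1341, 918 and 1228 in adult, 3289, 3228 and 2087 in old and 4253, 2536 and 3126 in young muscle, where old and young fish overlapped. HSC70 is also a name for HSPA8, and these entries cannot be assigned to separate genes here. The single higher entry of the list was 1 of the 2 tested entries named HSPA8 (689200, mean of 77.8 normalized counts). It was not called without adult replicate 1 (adjusted p = 0.0726) or 2 (0.0894, limma). The far more abundant entry 673962 (mean of 21862) did not change (-0.01, adjusted p = 0.968 by limma).

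For several biosynthetic groups the lower calls came mainly from the young side. Of 48 entries of mitochondrial protein import and biogenesis 13 were called lower (27.1%) and 1 higher, 3 were dips, and the median was -0.24 from old and -0.87 from young muscle. Cytosolic aminoacyl-tRNA synthetases had 6 of 25 entries lower (24%), 0 dips, and medians of -0.24 from old and -1.05 from young muscle (23 of the 25 log2 differences were negative). In ribosome biogenesis 16 of 115 entries were lower (13.9%) and 0 higher in limma, with medians of 0.01 from old and -1.06 from young muscle. At an unadjusted p under 0.05 in limma these numbers were 59 and 1, beside 2994 and 2834 of all 17454 tested entries. Leaving out 1 library gave 9 (without adult replicate 2) to 20 lower entries of the list. Its dips were DDX10, TAF1B and TBL3 (entry 639949). DDX10, an RNA helicase of ribosome assembly, had 42, 35 and 44 in adult, 56, 106 and 98 in old and 283, 450 and 555 in young muscle. By contrast the structural ribosomal proteins gave 1 higher entry of 60 and 0 lower in limma, the same numbers but for 1 lower at an unadjusted p under 0.05, and RNA polymerase III 0 of 16 in either direction (1 higher and 3 lower at that p).

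Proliferation genes followed the same course. In the cell cycle and DNA replication list 24 of 100 entries were called lower (24%), but only 2 were dips, and the median was 0.24 from old and -1.63 from young muscle. The number lower was 14 without young replicate 2 and 14 without adult replicate 1, and reached 28 among the fits without a library. MCM3, a subunit of the replicative helicase, had 12, 17 and 19 in adult, 11, 13 and 17 in old and 97, 133 and 138 in young muscle, and adult and old fish overlapped. The dips were E2F4 and RFC5, of which RFC5 was not called without young replicate 2 (adjusted p = 0.0564), adult replicate 1 (0.0870) or adult replicate 2 (0.0561, limma), and the single higher entry was CDKN1A. Among 42 entries of polyamine and nucleotide synthesis 5 were lower (11.9%) and 1 higher (3 without old replicate 1, 2 without adult replicate 2, old replicate 2 or old replicate 3). CAD (entry 858557), the enzyme of the first steps of pyrimidine synthesis, had 5, 5 and 10 in adult, 13, 14 and 26 in old and 70, 79 and 89 in young muscle.

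The fast myosin gene MYH2 was the most abundant dip. It had 18475, 3893 and 7534 normalized counts in adult, 39589, 48785 and 39833 in old and 57567, 94307 and 121533 in young muscle (7.46-fold below the average of both, -2.90, standard error 0.40, adjusted p = 0.00117 by limma). No ages overlapped, and adult replicate 2 was the lowest. MYOZ1B, a Z-disc protein, had 263, 160 and 673 in adult, 195, 992 and 1256 in old and 3980, 4025 and 4810 in young muscle, where 1 old fish fell among the adults. Its call was lost without adult replicate 2 (adjusted p = 0.0690 by limma). PDLIM5B (entry 845654), a Z-disc scaffold, was a peak with 248, 473 and 350 in adult, 212, 173 and 130 in old and 65, 50 and 61 in young muscle.

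Over the whole sarcomere list 14 of 133 entries were higher (10.5%) and 6 lower (4.51%), with a median of 0.09. The higher count was 9 without adult replicate 2, adult replicate 3 or young replicate 2, and the lower count was 3 without adult replicate 2. Over all fits without a library they ran from 9 to 18 and from 3 to 7. TNNI1 (entry 463125), the slow troponin I, had 190, 1501 and 778 in adult, 107, 287 and 147 in old and 194, 190 and 176 in young muscle, and TNNI2 (entry 195942), its fast counterpart, 605, 122 and 365 in adult, 1165, 1276 and 676 in old and 710, 629 and 874 in young muscle. The highest slow and the lowest fast value were both those of adult replicate 2, without which neither was called (adjusted p = 0.163 and 0.0725, limma). TNNI1 was called in only 2 of the 9 fits without a library, and TNNI2 was also lost without young replicate 3 (0.0526). Of 23 slow fibre marker entries 5 were higher (21.7%). Only 1 was higher without adult replicate 2, adult replicate 3 or young replicate 2. There were 2 without old replicate 1, and 3 without young replicate 1, young replicate 3 or adult replicate 1. Over the 9 fits without a library this count ran from 1 to 7. The median log2 difference of the slow fibre entries was 1.10, and 20 of the 23 differences were positive. This median was 0.89 without adult replicate 2 and ran from 0.80 to 1.26 over the 9 fits. At an unadjusted p under 0.05 in limma, 10 slow fibre entries were higher and 1 was lower. Of 27 fast or general fibre entries 1 was lower and 0 higher in limma (2 and 4 at an unadjusted p under 0.05), with 3 higher without adult replicate 1 and 2 without old replicate 3. The summed slow fibre markers were 83550 to 129808 in adult, 83449 to 140244 in old and 99841 to 120948 in young libraries. The part of fibre composition in these results was not tested.

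The muscle regulators MYOD1 and MYOG fell in adults. MYOD1, the determination factor, had 572, 278 and 354 normalized counts in adult, 1044, 1120 and 731 in old and 925, 928 and 1074 in young muscle (-1.32, standard error 0.22, adjusted p = 0.00241 by limma). MYOG, which acts in terminal differentiation, had 87, 130 and 129 in adult, 376, 197 and 267 in old and 258, 227 and 245 in young muscle (-1.17, standard error 0.21, adjusted p = 0.00383 by limma). In both genes old and young fish overlapped and the adults lay below. MYOG missed the 2-fold limit without adult replicate 1 (-0.98). HEY1 (entry 180804), a target of Notch, had 5 in each adult, 18, 25 and 25 in old and 34, 33 and 34 in young muscle. Over the myogenic list 4 of 51 entries were lower (7.84%) and 1 was higher (1.96%). There were 2 higher without adult replicate 1, adult replicate 3 or old replicate 1. Without adult replicate 2 there were 0 higher and 3 lower. The satellite cell factor PAX7 and the determination factor MYF5, chosen after seeing their values, were not called (-0.44 and -0.08).

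Of the histone and DNA methylation enzymes 10 of 103 entries were higher (9.71%) and 3 lower (2.91%), with a median of 0.01. SUZ12, a core subunit of the Polycomb repressive complex that methylates histone H3 at lysine 27, had 162, 138 and 133 normalized counts in adult, 275, 335 and 279 in old and 297, 278 and 306 in young muscle. The adults lay below all other fish and the old and young fish overlapped (-1.03, standard error 0.13, adjusted p = 0.000906 by limma), and the value was just under the 2-fold limit without adult replicate 2 (-0.999), adult replicate 3 (-0.97) or old replicate 2 (-0.98). The methyltransferase EZH2 was called lower with 31, 46 and 30 in adult, 58, 75 and 46 in old and 133, 157 and 114 in young muscle, whereas EZH1 was called higher with 359, 514 and 326 in adult, 354, 282 and 292 in old and 86, 64 and 90 in young muscle. Neither was a dip or a peak, since old muscle was within 2-fold of adults. Peaks were both entries of the demethylase KDM7A (1.34 and 1.43), KDM7AA (1.57), CBX7A and an entry of KDM2B. CBX7A had 87, 344 and 68 in adult and 89, 33 and 62 in old muscle, with adult replicate 2 the highest. These overlapped, and adult and old muscle did not differ by limma (log2 difference 1.15, adjusted p = 0.274). KDM7AA was not called without adult replicate 1 (adjusted p = 0.0596) or 2 (0.0688), and entry 933690 of KDM2B was called in only 2 of the 9 fits without a library (limma). The demethylase KDM6B had 713, 518 and 747 in adult, 435, 916 and 420 in old and 550, 474 and 745 in young muscle and was not called.

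Markers of other cell types moved in part with the adult group. Of 15 tested leukocyte entries 6 were called higher (40%, median 1.00). Leaving out 1 library gave 2 (without adult replicate 2) to 8 higher entries. The summed markers gave 1168 to 2224 normalized counts in adult, 840 to 1091 in old and 501 to 671 in young libraries. Of all 25 entries of these markers 2, both of IGLL1, were at 0 in every library. PTPRC, the pan-leukocyte antigen CD45, had 161, 214 and 120 in adult, 111, 104 and 101 in old and 82, 54 and 50 in young muscle. Its log2 difference was just under the limit of 1, so it was not called. MPX, the peroxidase of neutrophils, had 398, 254 and 255 in adult, 197, 73 and 140 in old and 66, 69 and 55 in young muscle. Neuronal markers were called lower in 11 of 19 entries (57.9%), and here the sums of 187 to 221 in adult and 209 to 384 in old libraries overlapped, against 1372 to 3805 in young libraries. Endothelial markers were higher in 2 of 21 entries, glial markers lower in 2 of 22 and cartilage and bone markers lower in 1 of 27, and each of these counts changed by 1 when single libraries were left out. Those of erythrocytes (9), fibroblasts and tendon (16), adipocytes (6) and epidermis (13) had 0 calls in either direction in limma. At an unadjusted p under 0.05 they had 1, 2, 2 and 0 higher and 1, 0, 0 and 2 lower entries. Of all 17454 tested entries 2834 were higher and 2994 lower at that p. The part of leukocytes in the immediate-early and glucocorticoid results was not tested.

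The other lists are set beside the 4.84% called higher and 4.55% called lower of all tested entries. Glycolysis and gluconeogenesis exceeded the higher share, and translation factors the lower one (7.14%). The rest stayed below both shares. Glycolysis and gluconeogenesis had 6 higher (8%) and 3 lower (4%) of 75 entries, and 3 higher without adult replicate 2. Translation factors had 2 higher and 4 lower of 56, mitochondrial ribosomal proteins 1 and 2 of 63 (4 lower without adult replicate 3, and at an unadjusted p under 0.05 in limma 1 higher and 23 lower, with a median of -0.36), the respiratory chain 1 and 1 of 53, splicing factors 1 and 1 of 75, the extracellular matrix 2 and 2 of 144 (4 higher without old replicate 3, 0 without adult replicate 2) and the citric acid cycle 0 and 1 of 33 in limma (1 and 6 at an unadjusted p under 0.05). Within these, PELO, a ribosome rescue factor, was a peak with 1100, 1115 and 1372 normalized counts in adult, 569, 505 and 438 in old and 391, 453 and 528 in young muscle, and MRPS21 of the mitochondrial ribosome one with 371, 338 and 467 in adult, 121, 143 and 235 in old and 110, 104 and 152 in young muscle. In both the adults exceeded all other fish. Counted at an unadjusted p under 0.05 in limma, glycolysis and gluconeogenesis had 27 higher and 10 lower of 75 entries. Translation factors had 5 and 17 of 56, and splicing factors 7 and 25 of 75. The respiratory chain had 4 and 6 of 53, and the extracellular matrix 11 and 18 of 144. Over all 17454 tested entries these numbers were 2834 and 2994.

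Not all peaks and dips carry a gene symbol. A symbol was given for 308 of the 395 peaks (292 different symbols) and 220 of the 284 dips (214 symbols), and 163 and 100 of them have a symbol with several entries, whose single values are uncertain because reads that fitted more than 1 gene were not counted. Of the peaks 42 and of the dips 29 were unnamed non-coding transcripts of the killifish annotation, and 4 and 2 came from families of non-coding RNA. Of all 17454 tested entries 14720 had a symbol, 1186 were such unnamed transcripts and 121 came from such families. An entry of MIR27, a peak of such a family, had 61, 79 and 52 normalized counts in adult, 24, 27 and 33 in old and 15, 13 and 20 in young muscle; these are total RNA libraries, so the reads need not come from the mature microRNA. In a few entries a whole age was at 0. PLAUR (entry 483323), the urokinase receptor, had 29, 30 and 19 in adult, 0 in each old and 8, 14 and 5 in young muscle, which is at least 8.67-fold higher in adult than in old muscle when each library at 0 is set to a floor of 3.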

How the data were processed

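Total RNA was extracted from whole skeletal muscle with the miRNeasy kit, converted to stranded total RNA libraries and sequenced in paired-end mode. Per the study's methods the authors trimmed reads with Trimmomatic 0.33, aligned them with STAR 2.4.2a to the assembly NotFur1 and counted exonic reads with featureCounts 1.4.5-p1, leaving out reads that fitted several genes or places. The deposited values are a signal, read counts that the authors divided by a size factor per library (DESeq is named) and that come as whole numbers, so no count model was used.

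Here log2(value + 1) of entries with a mean of at least 5 was fitted with limma 3.58.1 (R 4.3.3, 9 libraries in 1 fit, moderated variance with a trend) and p-values were adjusted after Benjamini and Hochberg over 17454 entries. Adults were contrasted with the average of both other age means. Old against young muscle is independent of that contrast by construction, whereas adult against old and adult against young share the adult libraries. This does not extend to the peaks and dips, since their 2-fold limits against each age restrict the difference of old and young means. Labels give no more than 1 fish per library, and p-values measure the spread between these 3 fish per age. Reads per library were estimated from the spacing of low values. Depth gives no interval here, since the values are rounded after scaling. In data simulated from the means and the smoothed spread of these libraries, 92% of changes of 1.5 and 100% of changes of 3 on the log2 scale were called among 200 changed genes of 17454. Of the unchanged genes 8 were called. The changed genes were drawn from the more abundant entries only, so these shares do not describe entries with few counts, where many dips lie. Each gene and library also varied independently in the simulation. Differences of a whole library, such as that of adult replicate 2, were therefore not part of it.

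Named genes were the 12 peaks and 12 dips with the smallest p that carry a symbol and whose adult values lie beyond all others, the 3 called members of each list with the smallest p, the 5 most abundant peaks and dips, the entries nearest the limits, and the called glucocorticoid, clock and immediate-early genes. Genes named beyond this rule, such as FBXO32, PPARGC1A, PPRC1, EZH1, the further peaks or dips of a list and single entries without a call, were chosen after their values were seen. The members and lists were chosen with earlier results of these data known. An entry is 1 row of the table, and a list takes the symbol with or without a trailing A or B. Sequences were not used here. Alternatives were other pseudocounts, filters, scalings, variance models, call rules, a replicate block and leaving out each library.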

Additional observations from a re-analysis of the deposited data

How the results depend on the processing

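Of 16 alternatives other than leaving out a library, most kept the counts of 845 higher and 795 lower entries, 395 peaks and 284 dips within 1.5 times. With a pseudocount of 5 there were 139 dips. Over the 7922 entries that averaged 50 or more there were 431 higher, 343 lower, 162 peaks and 97 dips, fewer because fewer entries were tested. Without the fold limit there were 1570 higher, 1671 lower, 1494 peaks and 1594 dips, and with the 2-fold limit inside the test (limma's treat) 46 higher, 16 lower, 42 peaks and 14 dips. Peaks and dips that had to be called against each age separately numbered 128 and 87. Leaving out each library in turn gave 430 to 926 higher, 490 to 915 lower, 210 to 437 peaks and 193 to 412 dips. The lowest came without adult replicate 2 and the highest without old replicate 1, and the cause was not tested. Equal library totals gave 196 dips and 415 peaks. They put the median log2 difference of all entries at -0.11 from young and 0.17 from old muscle, against -0.004 and 0.01 in the main fit.

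The replicate numbers do not pair the samples, since same-numbered libraries correlated by -0.0786 to 0.106 in their deviations from the age means and others by -0.105 to 0.116. With a replicate block there were 798 higher, 738 lower, 378 peaks and 264 dips. Of 5544 values of 244 named entries under the alternatives, 496 lost their call and 6 changed sign, all in genes that were not called. ARNTL1A (entry 714552) had -0.000512 with equal totals without the 20 most abundant genes, -0.00156 with quantile normalization, -0.0176 without young replicate 1, -0.00816 without adult replicate 3 and -0.0295 without old replicate 2 (leave-one-out range -0.0295 to 0.0388). MYF5 (entry 667286) had 0.0167 without adult replicate 1 (range -0.207 to 0.0167). Of 874 list medians 18 moved by more than the spread between libraries and 45 changed sign. An exact permutation test over samples alone, 3 against 6 libraries, has 84 splits. It could not go below a p of 1 in 84, or 0.0238 where the p is doubled to count both directions. Dips had a median of 8.33 normalized counts in adult muscle, where 1 read weighs most on the log2 scale.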

Other observations

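Genes of protein folding and transport in the endoplasmic reticulum were found among the dips, most of them outside the lists (HSPA5 also counts among the chaperones above). This group was put together after the values were seen and has no test as a group. HSPA5, the chaperone BiP, had 24, 15 and 13 normalized counts in adult, 32, 35 and 59 in old and 94, 130 and 94 in young muscle. MANF, a secreted protein of the endoplasmic reticulum, had 148, 90 and 128 in adult, 256, 221 and 302 in old and 459, 588 and 505 in young muscle. In both the adults lay below all other fish. Further dips were SEC61AL2 of the translocation channel (entry 554998, -1.29) and the chaperone CLGN (entry 506501, -1.81). The ribosome-binding protein RRBP1A was another (-1.89), all given as log2 differences from the average of both ages. The more abundant entry of SEC61AL2 (859506, mean of 784 normalized counts against 173) was not called (-0.34, adjusted p = 0.120 by limma). CLGN has 2 entries as well, so that its value is uncertain. Some entries of beta subunits of the sodium pump were dips as well. ATP1B1 (entry 921793) had 193, 98 and 169 in adult, 583, 499 and 269 in old and 753, 1185 and 774 in young muscle. Entry 104691 of ATP1B1 was also a dip (-1.84), whereas entry 302202 was not called and had 334, 289 and 279 in adult, 215, 278 and 205 in old and 234, 227 and 235 in young muscle, with all adults above the others. ATP1B2B (-1.40) was not called without adult replicate 2 (adjusted p = 0.0590 by limma).

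Subunits of the phagocyte NADPH oxidase were adult peaks beside the leukocyte markers, again chosen after their values were seen. CYBB, the membrane subunit, had 30, 36 and 24 normalized counts in adult, 17, 9 and 9 in old and 5, 3 and 2 in young muscle. NCF1, a cytosolic subunit, had 64, 56 and 34 in adult, 33, 18 and 19 in old and 10, 6 and 4 in young muscle. The receptor C5AR1 had 140, 143 and 82 in adult, 55, 42 and 42 in old and 29, 17 and 21 in young muscle. The ages did not overlap in these 3 genes, and their part in the leukocyte result was not tested.

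One of the 7 tested entries of the calcium channel RYR3, entry 18846, was lowest in adults, with 72, 30 and 33 normalized counts in adult, 283, 791 and 407 in old and 169, 160 and 373 in young muscle, where old and young fish overlapped. The other 6 were not called, among them the most abundant, entry 332368, with 45462, 23619 and 37496 in adult, 44507, 54588 and 41683 in old and 32190, 32687 and 39261 in young muscle (-0.23). TJAP1 (entry 481517), a tight junction protein, had 224, 123 and 339 in adult, 1, 13 and 4 in old and 4, 14 and 3 in young muscle, a 35.9-fold difference of adults from the average of both ages with old and young fish overlapping.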
